A study of Drosophila melanogaster with 35 samples.

Results

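Heads of Drosophila melanogaster that carried the WT form of KDM5 were sequenced in 5 libraries, and these 5 libraries fell into a set of 2 (WT 1 and WT 2) and a set of 3 (WT 3, WT 4 and WT 5). The sets were chosen by measured values, the levels of the RNAs lncRNA:roX2, Yp1 and Orco among them, and not from any label. The 5 libraries are part of 23 head libraries, which are part of 35 samples in the series. The study asked how transcription changes in flies with changes in the histone demethylase KDM5 modelled on human KDM5C variants of Claes-Jensen syndrome, an intellectual disability. The groups used here are WT KDM5 (n = 5) and, for the estimate of spread and as a backdrop, the modelled variants A224T, D234G, L854F, R873W and Y874C and the demethylase-dead strain JmjC (n = 3 each). All flies lived at 25 °C in alternating light and dark, and were taken in the morning, 1 to 5 days after eclosion. RNA was extracted with Trizol and made into libraries with a stranded mRNA kit. The labels give neither the sex nor the culture behind each library, so the spread within a set may be technical. All 5 libraries carry the same genotype, tissue and age labels, so no labelled variable separates the sets.

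In flies, males raise transcription from their X chromosome through the dosage compensation complex, a group of MSL proteins held together by the noncoding RNAs roX1 and roX2. In females the splicing regulator Sxl blocks this complex and directs female development through tra and dsx. The fat body, which serves as liver and adipose tissue and also fills spaces in the head, makes yolk proteins in females and a different set of secreted proteins in males. The antenna carries most odour-sensing neurons, whose odorant receptors work together with the co-receptor Orco, and support cells that secrete odorant-binding proteins. Photoreceptors, brain, muscle, cuticle and blood cells make up most of the remaining head.

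Library totals were 17224557 to 19407837 counts, so depth differed little between the sets. The chi-square statistic per degree of freedom was 8.40 for WT 1 with WT 2, 15.9 to 31.6 for pairs among WT 3 to WT 5, and 109 to 139 for pairs of libraries from different sets, an order that follows from the choice of the sets by measured values. Rows of the table that are not genes took 0.880 and 0.911% of counts in WT 1 and WT 2 and 1.24 to 1.41% in WT 3 to WT 5, and the 10 most abundant genes took 12.3 and 12.6% against 14.2 to 15.7%. The part of these technical measures in the differences that follow was not tested. Of 17830 genes, 12925 had enough counts over the 23 head libraries to be tested. A gene with few or no counts in the WT libraries can pass through a variant strain. Of the 12925, 1686 (13%) were higher and 1632 (12.6%) lower in WT 3 to WT 5 past a threshold used throughout. This threshold was an adjusted p (Benjamini-Hochberg) under 0.05 in the quasi-likelihood test of edgeR. Because the sets were drawn from these same values, the threshold serves only to describe which differences exceed the spread between libraries, and no p is given. The values of the sets did not overlap for 6763 of the genes tested (52.3%), 26.7% being higher and 25.6% lower in WT 3 to WT 5, so a lack of overlap, given below as a description, was common. At least a 2-fold difference was seen for 494 of the higher and 451 of the lower genes, and the median log2 fold over all genes tested was 0. The shares of 13% higher and 12.6% lower, and this median, are the backdrop for every list below. The lists were not tested against them. Genes averaging at least 5 CPM were past the threshold more often. On arms 2L, 2R, 3L and 3R 15.5 to 20.7% of them were higher and 13.7 to 15.5% lower. Over all genes tested on these arms the shares were 11.8 to 15.1% and 11.1 to 12.2%. The backdrop is therefore low for lists of well-expressed genes. The counts of higher and lower genes were 1017 and 955 without WT 1, and 1031 and 927 without WT 2. With scaling by library size alone they were 1351 and 1982, so that 40.5% of the genes past the threshold were higher in place of 50.8%.

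Both RNAs of the male dosage compensation complex were far lower in WT 3 to WT 5, while the proteins of the complex differed little. Levels here are in CPM, read counts scaled to library size with TMM factors, and 5 values are given in the order WT 1 and WT 2 against WT 3, WT 4 and WT 5. The log2 folds that follow are WT 3 to WT 5 minus WT 1 and WT 2, with their standard errors. roX2 (X chromosome, 11579065 to 11580432, dm6) was at 24.1 and 29.1 against 0.6003, 0.603 and 0.243 CPM, a log2 fold of -5.76 ± 0.29. The level was high in WT 1 and WT 2 and near 0 in the other libraries, which describes the choice of the sets, since roX2 was used for it. roX1 (X chromosome, 3857230 to 3862697) was at 822 and 867 against 13.7, 14.0 and 12.7 CPM, a log2 fold of -5.97 ± 0.17. Of the 8 genes of the dosage compensation list, all tested, these RNAs and msl-3 were lower past the threshold, none was higher, and the median was -0.25. msl-3, a chromodomain subunit, was at 16.9 and 19.3 against 13.9, 13.9 and 12.9 CPM (-0.41 ± 0.11), and -0.32 and no longer past the threshold without WT 2. The helicase mle was at 145 and 139 against 135, 143 and 144 CPM and the male-limiting subunit msl-2 at 46.5 and 47.0 against 38.6, 41.9 and 41.9 CPM, neither past the threshold.

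Female fat body transcripts were higher where the roX RNAs were lower. All 4 members tested, among them Yp1 which was used to choose the sets, were higher in WT 3 to WT 5 without overlap (26.7% of all genes tested were higher without overlap), with a median log2 fold of 2.49, and this count was 4 in each fit that left out 1 library. Yp1, a yolk protein gene of the X chromosome (10053811 to 10055498), was at 1801 and 2198 against 11056, 12709 and 10549 CPM (2.52 ± 0.18). Its neighbour Yp2 was at 2580.0 and 2774 against 15166, 15884 and 12730.0 CPM (2.45 ± 0.21), and Yp3 at 3488 and 4262 against 22751, 22059 and 19127 CPM (2.46 ± 0.21). The yolk protein genes resemble each other in sequence, and the labels do not say how reads shared between them were counted. fit, a female-biased secreted protein of the head fat body that acts in feeding, was at 37.4 and 46.6 against 633, 475 and 413 CPM (3.59 ± 0.43). Yolk protein RNA was therefore not absent from WT 1 and WT 2, which held it together with roX RNA. In whole-head libraries, fewer cells of a type and less RNA per cell cannot be told apart, here and in each cell type list below.

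Of 3 genes known as male-biased in the head fat body, Cyp4d21 and Obp99b were lower and to was higher in WT 3 to WT 5. Cyp4d21, a cytochrome P450 also called sxe1, was at 104 and 94.9 against 17.8, 16.2 and 13.9 CPM (-2.64 ± 0.19). Obp99b, which encodes a protein of the odorant-binding family, was at 33.9 and 38.8 against 3.30, 3.45 and 1.52 CPM (-3.71 ± 0.46). The third, to (takeout), a secreted protein linked to feeding and male courtship, was at 35.6 and 27.0 against 55.9, 46.2 and 57.1 CPM (0.76 ± 0.20), with 0.57 and no call without WT 2. The directions of the list were therefore mixed.

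**Figure D1:**
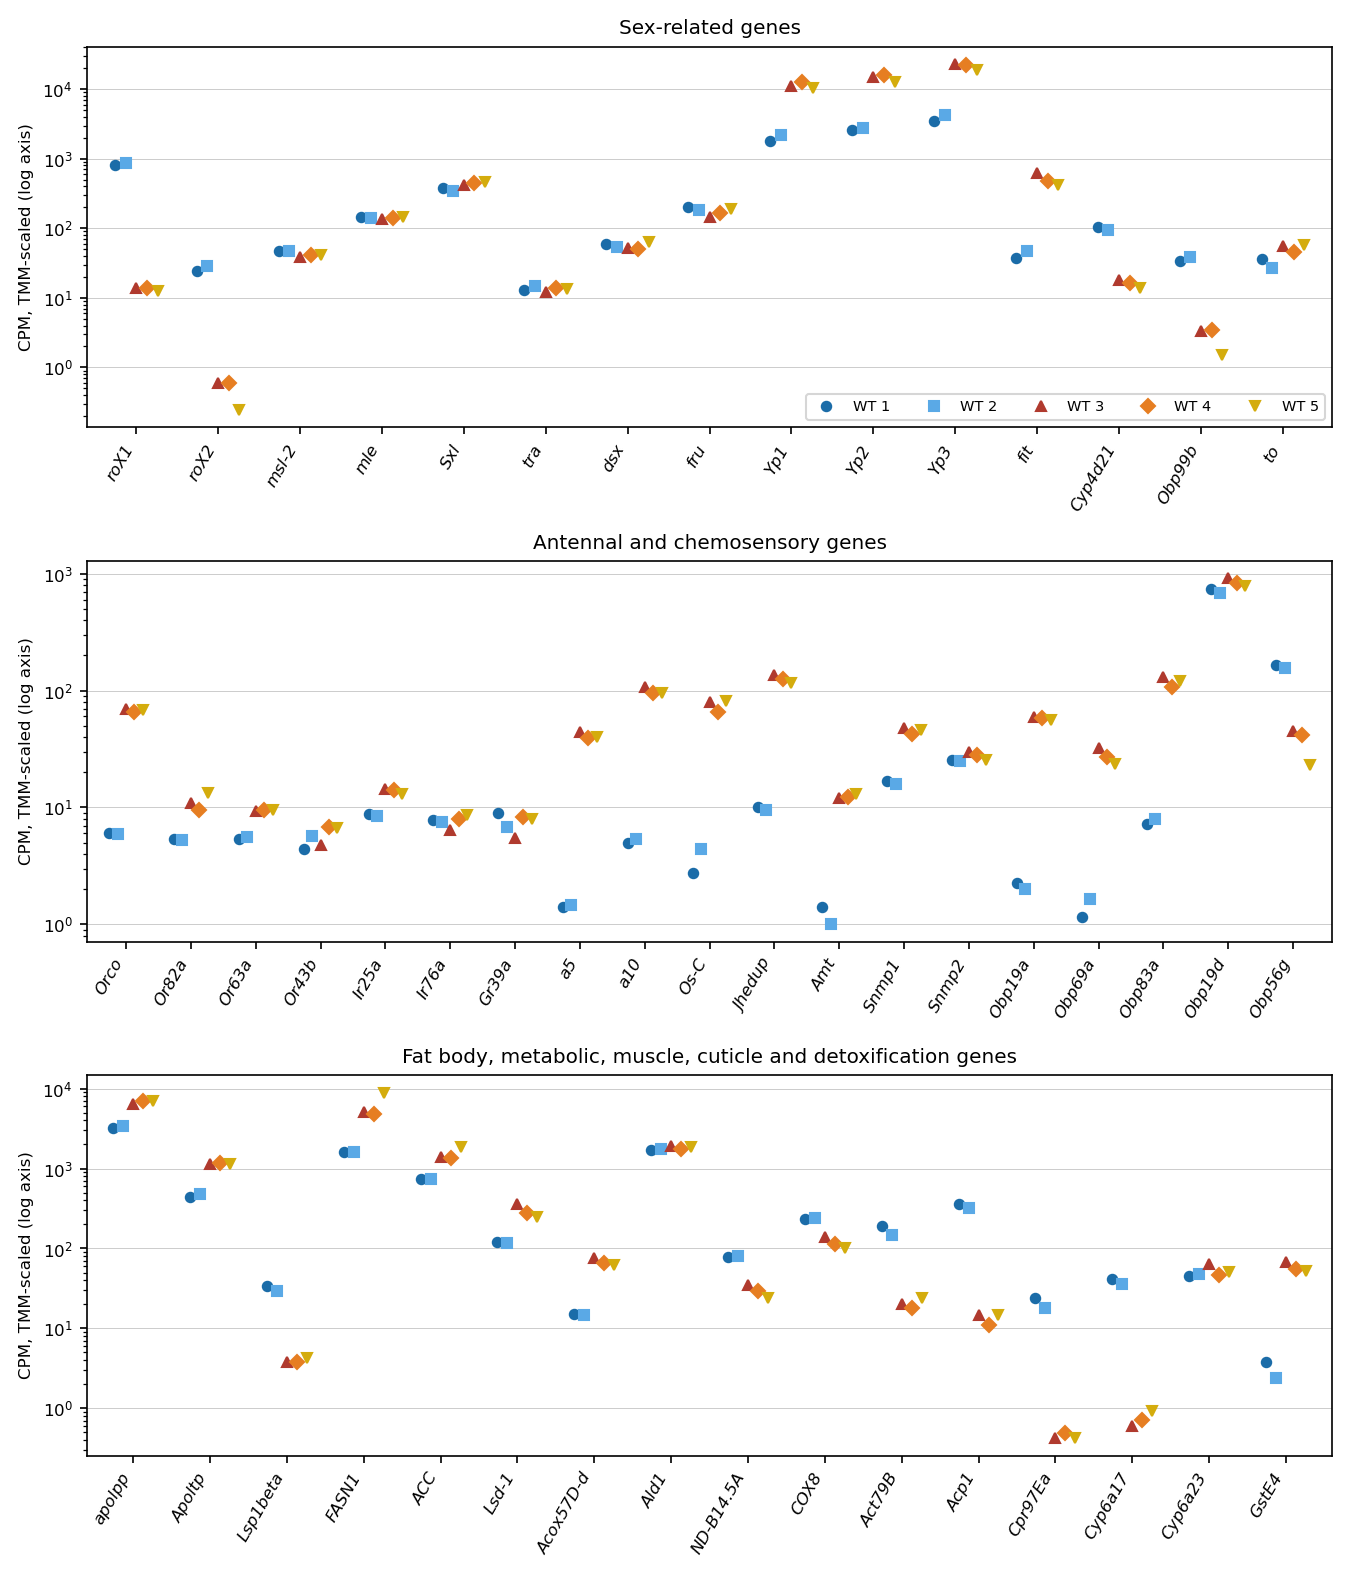
Each symbol is the level of 1 gene in 1 WT library, in TMM-scaled CPM on a log axis, for sex-related genes (top), antennal and chemosensory genes (middle) and fat body, metabolic, muscle, cuticle and detoxification genes (bottom). Blue symbols are WT 1 and WT 2, and red, orange and yellow symbols are WT 3, WT 4 and WT 5. roX1, roX2, Cyp4d21 and Act79B lie lower in WT 3 to WT 5, Yp1, fit, Orco and a10 lie higher, and mle, tra, Ir76a and Cyp6a23 lie at about the same level in all 5.

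Genes that set and carry out sexual identity differed little. None of the 10 sex determination genes tested was past the threshold, and their median was -0.07. Sxl, the master switch of female development, was at 375 and 348 against 415, 442 and 459 CPM. These values did not overlap, as for 26.7% of all genes tested in this direction. The splicing factor tra was at 13.02 and 14.7 against 12.1, 13.7 and 13.4 CPM, the transcription factor dsx at 59.9 and 54.4 against 52.8, 50.1 and 62.4 CPM, and fru, which directs male courtship circuits, at 200.4 and 185 against 144, 167 and 191 CPM. These genes act largely through sex-specific splicing, which gene-level counts do not resolve. Of 23 male reproductive tract genes 21 were tested. Among all 23, 8 were at 0 in all 5 libraries. The summed level of the 23 was 0.8 to 1.2 CPM in each library, so that no male tract RNA was detectable above that level.

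Of the 12 Y-linked genes listed, 9 were tested, and the large fertility genes kl-2, kl-3 and kl-5 had no count in any of the 5 libraries. FDY was the only listed Y gene past the threshold, at 0.836 and 1.47 against 8.77, 8.27 and 9.30 CPM (2.92 ± 0.36). FDY arose as a copy of vig2 on chromosome 3R, and vig2 was at 97.5 and 116 against 113, 104 and 104 CPM, so reads of the pair may have been assigned to either. Over all 25 tested genes placed on the Y, 5 were higher and 1 lower. The pseudogene CR40801 had no count in WT 1 or WT 2 and was at 4.38, 2.74 and 3.40 CPM in WT 3 to WT 5.

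Ovary and eggshell genes were low throughout, at a summed 8.05 and 20.7 against 14.8, 15.4 and 17.7 CPM, with 12 of 23 tested. The eggshell genes Cp7Fa, Cp7Fb and Cp7Fc were higher in WT 3 to WT 5, with Cp7Fa at 1.99 and 2.84 against 5.16, 4.60 and 6.50 CPM (1.16 ± 0.20). The germline genes vas, osk and aub were lower, and each was highest in WT 2, with vas at 0.366 and 4.001 against 0.240, 0.274 and 0.365 CPM and osk at 0 and 4.53 against 0, 0.110 and 0.0608 CPM. Neither was past the threshold without WT 2, when the log2 fold of vas was -0.32. The count of 3 higher and 3 lower became 3 and 0 without WT 2, 3 and 1 without WT 4, and 1 and 1 without WT 5.

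Odorant receptor RNA was higher in WT 3 to WT 5, led by the co-receptor Orco. Orco (chromosome 3R, 5407183 to 5412406) was at 6.01 and 5.90 against 68.9, 65.0 and 68.5 CPM, a log2 fold of 3.50 ± 0.16. Orco was used to choose the sets, so its level only describes them. Of 60 odorant receptor genes, 39 passed the filter on low counts, of which 26 were higher and 1 lower, with a median log2 fold of 2.79. Here and in the other lists, a gene with counts in only 1 set, or only in a variant strain, can pass that filter through it. The counts and medians therefore describe only the genes that passed. The summed level of the family was 35.9 and 36.1 against 143, 143 and 149 CPM. Orco is included in this total, as in the count and the median, so the total rests in part on a gene used to choose the sets. The count of higher genes was 15 without WT 1.

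Several receptors of antennal neurons were near 0 in WT 1 and WT 2. Or92a, a receptor for food odours, was at 0.157 and 0.105 against 3.42, 3.01 and 3.71 CPM (4.62 ± 0.66). Or59b, a receptor of antennal neurons, was at 0.366 and 0.158 against 4.503, 3.89 and 5.35 CPM (4.09 ± 0.61), or 4.81 without WT 1. Or42b, which responds to vinegar esters, was at 0.470 and 0.0526 against 3.06, 3.29 and 4.07 CPM (3.70 ± 0.55), or 5.89 without WT 1 and 2.86 without WT 2. These receptors showed no overlap between the sets, as for 26.7% of all genes tested in this direction. Smaller differences were seen for Or82a at 5.33 and 5.26 against 10.8, 9.59 and 13.2 CPM (1.08 ± 0.20) and Or63a, which is known from larvae, at 5.38 and 5.58 against 9.37, 9.48 and 9.48 CPM (0.78 ± 0.14). Or43b was at 4.39 and 5.74 against 4.80, 6.85 and 6.63 CPM, with overlap. Or45a, known as a larval receptor, was the single member lower past the threshold, at 5.12 and 2.16 against 0.3002, 0.274 and 0.304 CPM (-3.61 ± 0.59), or -2.85 without WT 1.

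Ionotropic receptors, which detect acids, amines, humidity and temperature, were also higher, at a summed 62.7 and 53.2 against 86.1, 89.9 and 94.9 CPM. Of 66 genes 25 were tested, 12 were higher and none lower, with a median of 0.81, and 7 were higher without WT 2. As with the odorant receptors, a gene can pass the filter through 1 set or a variant strain, so this count and median describe only the genes that passed. The co-receptor Ir8a was at 0.418 and 0 against 2.88, 2.25 and 2.67 CPM and the acid receptor Ir64a at 0.209 and 0 against 1.98, 1.97 and 1.70 CPM. Both were past the threshold, with log2 folds of 2.61 and 3.13 without WT 2, which held no count of either. The broadly used co-receptor Ir25a was at 8.78 and 8.37 against 14.47, 14.0 and 13.1 CPM (0.69 ± 0.11). Ir76b, another co-receptor, was at 9.57 and 6.37 against 12.9, 13.2 and 11.0 CPM (0.63 ± 0.17), with 0.36 and no call without WT 2. Ir51b was at 3.76 and 3.37 against 6.78, 6.79 and 7.05 CPM (0.95 ± 0.18), while Ir76a was at 7.84 and 7.48 against 6.36, 7.999 and 8.63 CPM.

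Gustatory receptors differed less, with 4 of 19 tested higher and 1 lower, out of 60 genes, and a summed 24.5 and 22.6 against 26.3, 27.6 and 26.1 CPM. The carbon dioxide receptor of the antenna, formed by Gr21a and Gr63a, was among the higher ones. These counts too describe only the genes that passed the filter on low counts. Gr63a was at 0.105 and 0.105 against 1.56, 1.15 and 1.34 CPM (3.61 ± 0.63) and Gr21a at 0.261 and 0 against 1.20, 0.986 and 1.28 CPM, past the threshold, with a log2 fold of 2.11 without WT 2, which held no count. Gr64f, a co-receptor for sugars, was at 0.889 and 0.263 against 2.70, 2.03 and 2.07 CPM (1.96 ± 0.58), or 3.09 without WT 1 and 1.34 and not past the threshold without WT 2. The bitter receptor Gr66a was at 0.941 and 1.21 against 1.26, 1.42 and 0.790 CPM and the sugar receptor Gr43a at 1.05 and 0.895 against 0.961, 1.10 and 0.912 CPM, neither past the threshold. The counts were 3 higher and none lower without WT 1, 2 and none without WT 2, and 4 and none without WT 3 or WT 5.

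Odorant-binding proteins, small carriers secreted around sensory hairs, split in both directions. Of 52 genes 38 were tested, 12 were higher and 8 lower, with a median of 0.17 that was 0 without WT 3. The highest fold belonged to Obp19a (X chromosome), at 2.25 and 2.001 against 59.0, 58.3 and 55.7 CPM (4.76 ± 0.26). Obp83a, an abundant antennal carrier, was at 7.27 and 8.002 against 129, 108 and 120.3 CPM (3.96 ± 0.34), and its neighbour Obp83b at 4.86 and 4.001 against 81.2, 66.6 and 68.6 CPM (4.02 ± 0.23). The sets did not overlap for any of these, as for 26.7% of all genes tested in this direction. Obp69a was at 1.15 and 1.63 against 32.5, 26.8 and 23.5 CPM (4.30 ± 0.22) and Obp59a, known from humidity-sensing antennal hairs, at 0.470 and 0.474 against 12.3, 12.6 and 10.7 CPM (4.63 ± 0.32). lush, the carrier of the male pheromone cVA, was at 3.97 and 3.58 against 20.9, 16.2 and 17.6 CPM (2.27 ± 0.24), a smaller difference.

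Other odorant-binding proteins were lower in WT 3 to WT 5. Obp56g, known from taste organs, was at 166 and 155 against 45.3, 41.4 and 23.04 CPM (-2.13 ± 0.49), Obp56d at 408 and 399 against 220.2, 169 and 141 CPM (-1.19 ± 0.15) and Obp19b at 39.3 and 37.5 against 16.0, 16.4 and 9.42 CPM (-1.46 ± 0.20). In each of these WT 5 was the lowest library. Obp19d was at 739 and 683 against 911, 835 and 779.6 CPM and Obp99c at 421 and 467 against 451, 334 and 281 CPM, neither past the threshold. The family total overlapped between the sets, at 2798 and 2692 against 2840.0, 2399.5 and 2153 CPM.

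Secreted and membrane proteins of the antenna were mostly higher, with 6 of 8 tested higher and none lower and a median of 3.52, the highest of all 41 lists. This count was 6 in each fit that left out 1 library. a10, an antennal secreted protein, was at 4.97 and 5.37 against 106, 95.7 and 95.5 CPM (4.26 ± 0.23), a5 at 1.41 and 1.47 against 44.5, 39.0 and 40.4 CPM (4.83 ± 0.27) and Os-C at 2.77 and 4.37 against 79.4, 66.1 and 82.2 CPM (4.41 ± 0.28). Jhedup, an esterase that degrades food odours in the antenna, was at 10.1 and 9.48 against 135, 125 and 117 CPM (3.68 ± 0.25). The ammonium transporter Amt, found in antennal support cells, was at 1.41 and 1.0003 against 12.1, 12.2 and 13.1 CPM (3.36 ± 0.27). Snmp1, a membrane protein needed for cVA detection, was at 16.7 and 16.0 against 47.8, 42.9 and 45.8 CPM (1.48 ± 0.15). The sets did not overlap for these 6, as for 26.7% of all genes tested in this direction. Snmp2, which is made more widely, was at 25.5 and 25.1 against 29.96, 28.1 and 25.5 CPM, and the ammonium transporter Rh50 at 98.5 and 103 against 92.3, 80.5 and 88.7 CPM, neither past the threshold.

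Genes of ciliated mechanosensory neurons, which fill the hearing organ of the antenna, were higher in 6 and lower in 1 of 18 tested, with a median of 0.64. Dhc93AB, a dynein heavy chain of motile cilia, was at 12.3 and 10.4 against 34.9, 39.2 and 43.6 CPM (1.79 ± 0.16). The intraflagellar dynein btv was at 7.005 and 6.21 against 13.3, 14.7 and 19.1 CPM (1.25 ± 0.17) and the hearing channel iav at 2.04 and 1.95 against 5.40, 5.21 and 5.96 CPM (1.47 ± 0.21). nompC, a touch channel, was at 9.04 and 7.95 against 7.56, 7.62 and 8.33 CPM, with overlap. nompA, a cap protein of sensory endings, was lower at 10.1 and 11.6 against 6.84, 7.83 and 4.68 CPM (-0.74 ± 0.22), and lost the call without WT 2 (-0.65) or WT 5 (-0.56). The counts were 3 and 0 without WT 2 and 5 and 0 without WT 5.

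Lipid carriers made by the fat body were at least 2-fold higher in WT 3 to WT 5, and the larval serum protein gene Lsp1beta was lower. apolpp (chromosome 4), the main lipid carrier of the blood, was at 3234 and 3426 against 6454, 6951 and 7090.0 CPM (1.04 ± 0.17). The lipid transfer protein Apoltp was at 441 and 479 against 1127, 1181 and 1146 CPM (1.32 ± 0.13), and Mtp, which loads lipid onto these carriers, at 52.4 and 59.1 against 138, 129 and 116 CPM (1.20 ± 0.21). AkhR, the receptor of the fat-mobilising adipokinetic hormone, was at 67.3 and 67.8 against 216, 172 and 159 CPM (1.44 ± 0.17). All of these were free of overlap, as were 26.7% of all genes tested in this direction. Lsp1beta was at 33.7 and 29.7 against 3.78, 3.84 and 4.32 CPM (-2.99 ± 0.55), and Lsp2 at 6.43 and 5.74 against 1.26, 1.31 and 0.608 CPM, not past the threshold. In the fat body list 11 of 13 genes were tested, 4 were higher and 2 lower, and the median of 0.21 was -0.0015 without WT 2 and -0.24 without WT 4. The count of lower genes was 1 without WT 1, WT 2, WT 3 or WT 4.

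Genes of lipid synthesis and storage were higher, 12 of 20 tested past the threshold and none lower, with a median of 0.54. FASN1, the fatty acid synthase, was at 1615 and 1625 against 5038, 4768 and 8931 CPM (1.95 ± 0.19). WT 5 was the highest library for it, and the sets did not overlap, as for 26.7% of all genes tested in this direction. ACC, which makes malonyl-CoA for this synthase, was at 742 and 741 against 1382, 1359.9 and 1859 CPM (1.05 ± 0.13), and the desaturase Desat1 at 1455 and 1655 against 2922, 2891 and 3552 CPM (1.01 ± 0.13). The lipid droplet protein Lsd-1 was at 121 and 117 against 356, 276 and 245 CPM (1.30 ± 0.20), and mdy, which makes triglyceride, at 49.8 and 56.4 against 110.3, 89.03 and 91.8 CPM (0.87 ± 0.14). Lpin was at 371 and 348 against 341, 364 and 389.9 CPM and the triglyceride lipase bmm at 64.0 and 66.8 against 79.3, 88.9 and 68.8 CPM, neither past the threshold. With scaling by library size alone 11 genes were higher and 1 lower.

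Fatty acid oxidation genes were also higher, 6 of 13 tested and none lower, with a median of 0.33. The peroxisomal oxidase Acox57D-d was at 15.002 and 14.6 against 75.1, 65.1 and 62.7 CPM (2.19 ± 0.11) and its neighbour Acox57D-p at 26.3 and 28.0 against 56.2, 50.02 and 52.0 CPM (0.96 ± 0.08). The carnitine palmitoyltransferase whd was at 256 and 268 against 391, 349 and 341 CPM (0.46 ± 0.10). Mcad, an acyl-CoA dehydrogenase, was at 3.76 and 13.5 against 35.9, 26.4 and 18.7 CPM (1.65 ± 0.40), and 1 library decided its size, with 1.01 and no call without WT 1 and 2.83 without WT 2. CPT2 was at 55.3 and 52.4 against 62.3, 50.9 and 49.4 CPM, with overlap.

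Sugar metabolism showed no common direction. Over all genes tested 13% were higher and 12.6% lower. In the glycolysis and glycogen list 3 of 17 tested were higher and 2 lower, the median was 0, and 1 gene was lower without WT 1, WT 2, WT 4 or WT 5. UGP, which makes UDP-glucose for glycogen, was at 216 and 257 against 469, 415 and 402 CPM (0.86 ± 0.10), and Gpdh1, which links glycolysis to lipid synthesis, at 484 and 472 against 844, 733 and 735 CPM (0.69 ± 0.08). The branching enzyme AGBE was at 123 and 125 against 181, 144 and 174 CPM (0.42 ± 0.10). Tpi, a glycolytic isomerase, was lower at 347 and 358 against 264, 207 and 185 CPM (-0.69 ± 0.13), and the aldolase Ald1 was at 1719 and 1759.9 against 1929, 1765 and 1861 CPM. In the TCA cycle 1 of 15 tested was higher and 3 lower, with a median of -0.04, and these counts were 0 and 2 without WT 1 or WT 2. The malate dehydrogenase gene Mdh2, at 620.0 and 644 against 487, 441 and 444 CPM (-0.47 ± 0.10), and the pyruvate dehydrogenase subunit gene Pdhb, at 267 and 271 against 207, 183 and 191 CPM (-0.47 ± 0.10), were lower.

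Nuclear genes for the respiratory chain were lower in WT 3 to WT 5. Of 40 complex I genes 38 were tested, 23 were lower and none higher, with a median of -0.45, and 15 were lower without WT 1. ND-MWFE was at 30.4 and 37.6 against 13.6, 8.55 and 9.85 CPM (-1.68 ± 0.17), ND-B14.5A at 77.3 and 79.8 against 35.3, 29.6 and 23.9 CPM (-1.41 ± 0.13) and ND-B17 at 106 and 109.7 against 62.1, 55.2 and 48.1 CPM (-0.97 ± 0.11). These encode small accessory subunits of the complex. The sets did not overlap for them, as for 25.6% of all genes tested in this direction. Of 50 genes of complexes II to V 48 were tested, 25 were lower and 1 higher, with a median of -0.42. ATPsynF was at 416 and 431 against 211, 176 and 153 CPM (-1.23 ± 0.12), UQCR-Q at 251 and 265 against 140.5, 120.0 and 100.4 CPM (-1.10 ± 0.12) and COX8 at 234.2 and 242 against 137, 112 and 100.4 CPM (-1.03 ± 0.10). The higher member was the catalytic ATP synthase subunit ATPsynbeta, a gene of chromosome 4, at 1646 and 1656 against 2219.8, 1961 and 1963 CPM (0.31 ± 0.09), which lost the call without WT 1 (0.32), WT 2 (0.31) or WT 3 (0.25). Within the second set WT 3 was the highest library for these subunits and WT 4 or WT 5 the lowest.

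Over all 19 genes tested of the mitochondrial genome, 42.1% were lower and 5.26% higher, with a median of -0.65. Its protein-coding genes had a median closer to 0. Of 13 genes tested 3 were lower and 1 higher, with a median of -0.05, or 2 and 0 without WT 2. mt:ND2 (mitochondrial genome, 240 to 1263) was at 193 and 175 against 29.1, 19.1 and 20.4 CPM (-3.01 ± 0.25) and mt:ND4L at 29.7 and 23.1 against 2.88, 2.90 and 1.82 CPM (-3.37 ± 0.39). mt:CoI, which encodes a core subunit of cytochrome c oxidase, was at 10512 and 11156 against 15986, 13338 and 12373 CPM, and mt:Cyt-b at 4288 and 4566 against 5353, 4261 and 3815 CPM, neither past the threshold. All 4 mitochondrial tRNAs tested and mt:srRNA were lower, with mt:srRNA at 123 and 157 against 74.98, 52.1 and 42.9 CPM (-1.31 ± 0.41), which lost the call without WT 1 (-1.46), WT 2 (-1.13), WT 4 (-1.25) or WT 5 (-1.14). The large rRNA mt:lrRNA was at 38478 and 40896 against 42308, 33608 and 34803 CPM. The kit selects polyadenylated RNA, so these values depend on tails as well as amounts, and that dependence was not tested.

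Among translation genes, mitochondrial ribosomal proteins were lower, ribosome assembly factors higher and cytosolic ribosomal proteins split. Of 73 mitochondrial ribosomal protein genes 72 were tested, 34 were lower and 1 higher, with a median of -0.35, and 21 were lower without WT 2, while none was higher without WT 1, WT 2 or WT 3. mRpS14 was at 14.4 and 14.8 against 6.84, 5.64 and 4.19 CPM (-1.39 ± 0.17) and mRpS21 at 14.1 and 14.4 against 6.30, 5.37 and 5.47 CPM (-1.32 ± 0.22). All 22 ribosome assembly genes were tested, 15 were higher and none lower, with a median of 0.51, and 9 were higher without WT 1. The box C/D small nucleolar RNP proteins nop5, at 25.9 and 37.0 against 65.1, 62.2 and 51.4 CPM (0.92 ± 0.17), and Nop56, at 28.3 and 33.5 against 63.0, 55.6 and 50.5 CPM (0.87 ± 0.15), had the largest folds of the list. In the 18 libraries of the variant strains nop5 was at 21.7 to 39.0 CPM and Nop56 at 19.9 to 35.0 CPM, all below WT 3 to WT 5.

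Of 93 cytosolic ribosomal protein genes 91 were tested. With 13% of all genes tested higher and 12.6% lower, 16 of these were higher and 16 lower, and the median was 0.01. The counts were 9 and 11 without WT 1, 11 and 9 without WT 2, and 11 and 25 without WT 3. RpS3A (chromosome 4) was at 994 and 1094 against 2169, 1803 and 1693 CPM (0.86 ± 0.10) and RpL5 at 1401 and 1516 against 2532, 2179 and 2009.7 CPM (0.62 ± 0.09). RpL22 was at 692 and 790.1 against 352, 379 and 383 CPM (-0.996 ± 0.11) and RpL34b at 652 and 683 against 406, 338 and 311 CPM (-0.92 ± 0.12). None of these overlapped between the sets, as for 52.3% of all genes tested. The summed level of the list was 60651 and 64760.0 against 71948, 62235 and 57075 CPM, with overlap. Proteasome genes, all 32 tested, were lower in 12 and higher in none, with a median of -0.32, and 3 were lower without WT 1 and 6 without WT 2 or WT 5. Prosbeta5, a catalytic subunit, was at 91.3 and 87.4 against 58.6, 51.9 and 43.8 CPM (-0.80 ± 0.15).

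Muscle genes were lower in WT 3 to WT 5, 14 of 23 tested against 1 higher, with a median of -0.49 and a summed 14454 and 12871 against 9858, 10075 and 10860.0 CPM. The count of lower genes was 5 without WT 1 and 9 without WT 4. Act79B, an actin of tubular muscle, was at 189.8 and 146 against 20.4, 17.9 and 23.7 CPM (-3.02 ± 0.45), by far the largest difference of the list. Troponin T, encoded by up, was at 787 and 695 against 377, 379 and 407 CPM (-0.93 ± 0.16), and paramyosin, encoded by Prm, at 485 and 422 against 248, 253 and 265 CPM (-0.83 ± 0.15). The myosin heavy chain gene Mhc was at 3444 and 2978 against 2411, 2767 and 3139.8 CPM, with overlap, and Mlp84B at 327 and 327 against 321, 313 and 352 CPM. TpnC4, a troponin C of flight muscle, was higher at 2.25 and 3.11 against 7.14, 6.41 and 7.23 CPM (1.37 ± 0.22).

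Several cuticle genes showed similarly large differences. Of 123 cuticle protein genes 61 were tested, 20 were lower and 7 higher, with a median of -0.58, or 13 and 2 without WT 1 and 15 and 4 without WT 2. Cpr97Ea was at 24.1 and 17.9 against 0.420, 0.493 and 0.426 CPM (-5.53 ± 0.65), Cpr62Bc at 35.3 and 19.3 against 1.68, 2.03 and 2.86 CPM (-3.64 ± 0.51) and Cpr100A at 155 and 116 against 27.0, 19.6 and 29.6 CPM (-2.42 ± 0.37). Cpr72Ec, a cuticle protein of the corneal lens, went the other way, at 221 and 234.3 against 471, 441 and 639 CPM (1.18 ± 0.20). The adult cuticle protein gene Acp1, which lies outside the list and was picked after its values were seen, was at 365 and 325 against 14.6, 11.1 and 14.9 CPM (-4.68 ± 0.65).

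Markers of eye and brain, which define the labelled tissue, were abundant in all 5 libraries, and most of them were not past the threshold. The photoreceptor list (25 of 26 tested) summed to 74999 and 73610.0 against 64855, 65048 and 62489 CPM, with 7 lower, 1 higher and a median of -0.16, or 3 lower without WT 1 or WT 2. ninaE, the main rhodopsin of the eye, was at 29781 and 29707 against 24519, 23676 and 21779 CPM (-0.35 ± 0.09), and Rh5, the blue rhodopsin, at 266 and 267 against 195, 207 and 168 CPM (-0.48 ± 0.09). santa-maria, a receptor for carotenoid uptake, was higher at 85.6 and 81.8 against 134, 131 and 108 CPM (0.57 ± 0.10). In the list of synaptic and neuronal genes 6 of 23 tested were lower and 1 higher, with a median of -0.18, and the summed level overlapped between the sets, at 11910.0 and 11235 against 9387, 10299 and 11244 CPM. Rop, which acts in vesicle fusion, was at 384 and 381 against 278, 270.3 and 263 CPM (-0.50 ± 0.07). The number lower was 1 without WT 1 or WT 3 and 2 without WT 4, and none was higher without WT 2.

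Neuropeptide genes were lower in 10 and higher in 2 of 27 tested, with a median of -0.21, and 6 were lower and none higher without WT 1, 7 and 1 without WT 2, and 8 and 1 without WT 3. Mip was at 59.6 and 53.4 against 29.0, 26.6 and 34.7 CPM (-0.91 ± 0.13) and AstA at 41.3 and 38.6 against 23.8, 20.8 and 21.6 CPM (-0.86 ± 0.08), both peptides of brain and gut. Pdf, the peptide of the clock neurons, was at 45.9 and 44.1 against 29.0, 30.4 and 20.4 CPM (-0.76 ± 0.13). Glial genes had 1 higher and 1 lower of 13 tested and a median of 0.11, and the lower one was not past the threshold without WT 1, WT 2, WT 4 or WT 5. Indy, a citrate transporter, was the higher one, at 151 and 146 against 258, 219 and 244 CPM (0.69 ± 0.08).

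Blood cell genes were higher in 4 of 12 tested, with a median of 0.47, and in 1 without WT 1 or WT 2 and 2 without WT 3. The GATA factor srp, shared by blood and fat body, was at 60.6 and 61.4 against 83.4, 87.4 and 95.3 CPM (0.54 ± 0.11). Hml, a clotting protein of plasmatocytes, was at 199 and 178 against 193, 207 and 230.3 CPM, with overlap. Of 39 immune effector genes tested 4 were lower and 1 higher. The lower count was 2 without WT 1 and 10 without WT 4, and the higher count was 0 without WT 2 or WT 4 and 2 without WT 5. The median of -0.30 was 0.0020 without WT 5. Drsl4, a relative of the antifungal peptide drosomycin, was at 147 and 116 against 13.7, 5.26 and 5.29 CPM (-4.02 ± 0.41), and -4.63 without WT 3. PGRP-SD, a sensor of bacterial peptidoglycan, was at 19.7 and 21.3 against 7.56, 9.42 and 3.71 CPM (-1.56 ± 0.36).

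Detoxification genes differed in both directions, as did all genes tested, of which 13% were higher and 12.6% lower. Of 75 cytochrome P450 genes tested 21 were higher and 12 lower, or 13 and 10 without WT 2. Cyp6a17, a P450 that acts in temperature preference, was lower at 41.7 and 36.4 against 0.6003, 0.712 and 0.912 CPM (-5.71 ± 0.38). Its tandem neighbour Cyp6a23, which starts at 14875829 on chromosome 2R just after Cyp6a17 ends at 14875739, was at 45.3 and 47.3 against 63.3, 47.0 and 51.1 CPM and not past the threshold. Cyp308a1 was higher at 3.14 and 2.63 against 16.0, 11.0 and 13.9 CPM (2.24 ± 0.26). Of 32 glutathione transferases tested 6 were higher and 2 lower, with counts of 2 and 2 without WT 1, 5 and 1 without WT 2, and 4 and 5 without WT 3. GstE4 was at 3.76 and 2.42 against 68.5, 55.7 and 52.2 CPM (4.24 ± 0.24). Of 28 UDP-glycosyltransferases tested 7 were higher and 3 lower. These became 5 and 1 without WT 1 or WT 4, 4 and 1 without WT 2, and 4 and 3 without WT 3. Ugt49C1 was at 39.4 and 38.3 against 116, 105 and 114 CPM (1.52 ± 0.12).

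Over all genes tested 13% were higher and 12.6% lower, and among 26 heat shock proteins tested 3 were higher and 5 lower. The counts were 0 and 4 without WT 1, 1 and 3 without WT 2, and 1 and 5 without WT 5. Hsp70Ba, an inducible chaperone gene with near-identical copies, was at 252 and 176 against 5.70, 7.83 and 6.38 CPM (-5.01 ± 0.54). Its copy Hsp70Bc was at 221 and 165 against 157, 146 and 145 CPM and Hsp70Ab at 12.1 and 12.5 against 24.97, 43.9 and 36.2 CPM, neither past the threshold, and counts within this family may be split by the way shared reads were assigned. In the clock list 2 of 10 tested were higher and 2 lower, or 2 and 1 in each fit that left out 1 library. Clk, the activator of the clock, was at 67.0 and 62.9 against 101, 103 and 125 CPM (0.76 ± 0.10), its modulator cwo at 96.4 and 93.4 against 135, 137 and 139 CPM (0.53 ± 0.10), and tim, a repressor, at 246 and 256 against 162, 180.5 and 134 CPM (-0.66 ± 0.14).

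The remaining lists stand beside 13% higher and 12.6% lower over all genes tested. Of 17 histone methylation genes none was past the threshold, and the median was 0.03. Kdm5, the gene varied in the study, was at 465 and 479 against 447, 499 and 536 CPM, with overlap. Eye pigment genes had 4 of 16 tested higher and a median of 0.05, with 2 higher without WT 2 or WT 3. Of 36 digestive enzyme and lysozyme genes tested none was higher and 2 were lower, or none without WT 2 and 1 without WT 5. With DESeq2 3 were higher, and 10 were higher when the WT libraries alone were fitted. Their median was 1.62, and the summed level overlapped between the sets, at 373 and 405 against 417, 356 and 347 CPM.

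**Figure D2:**
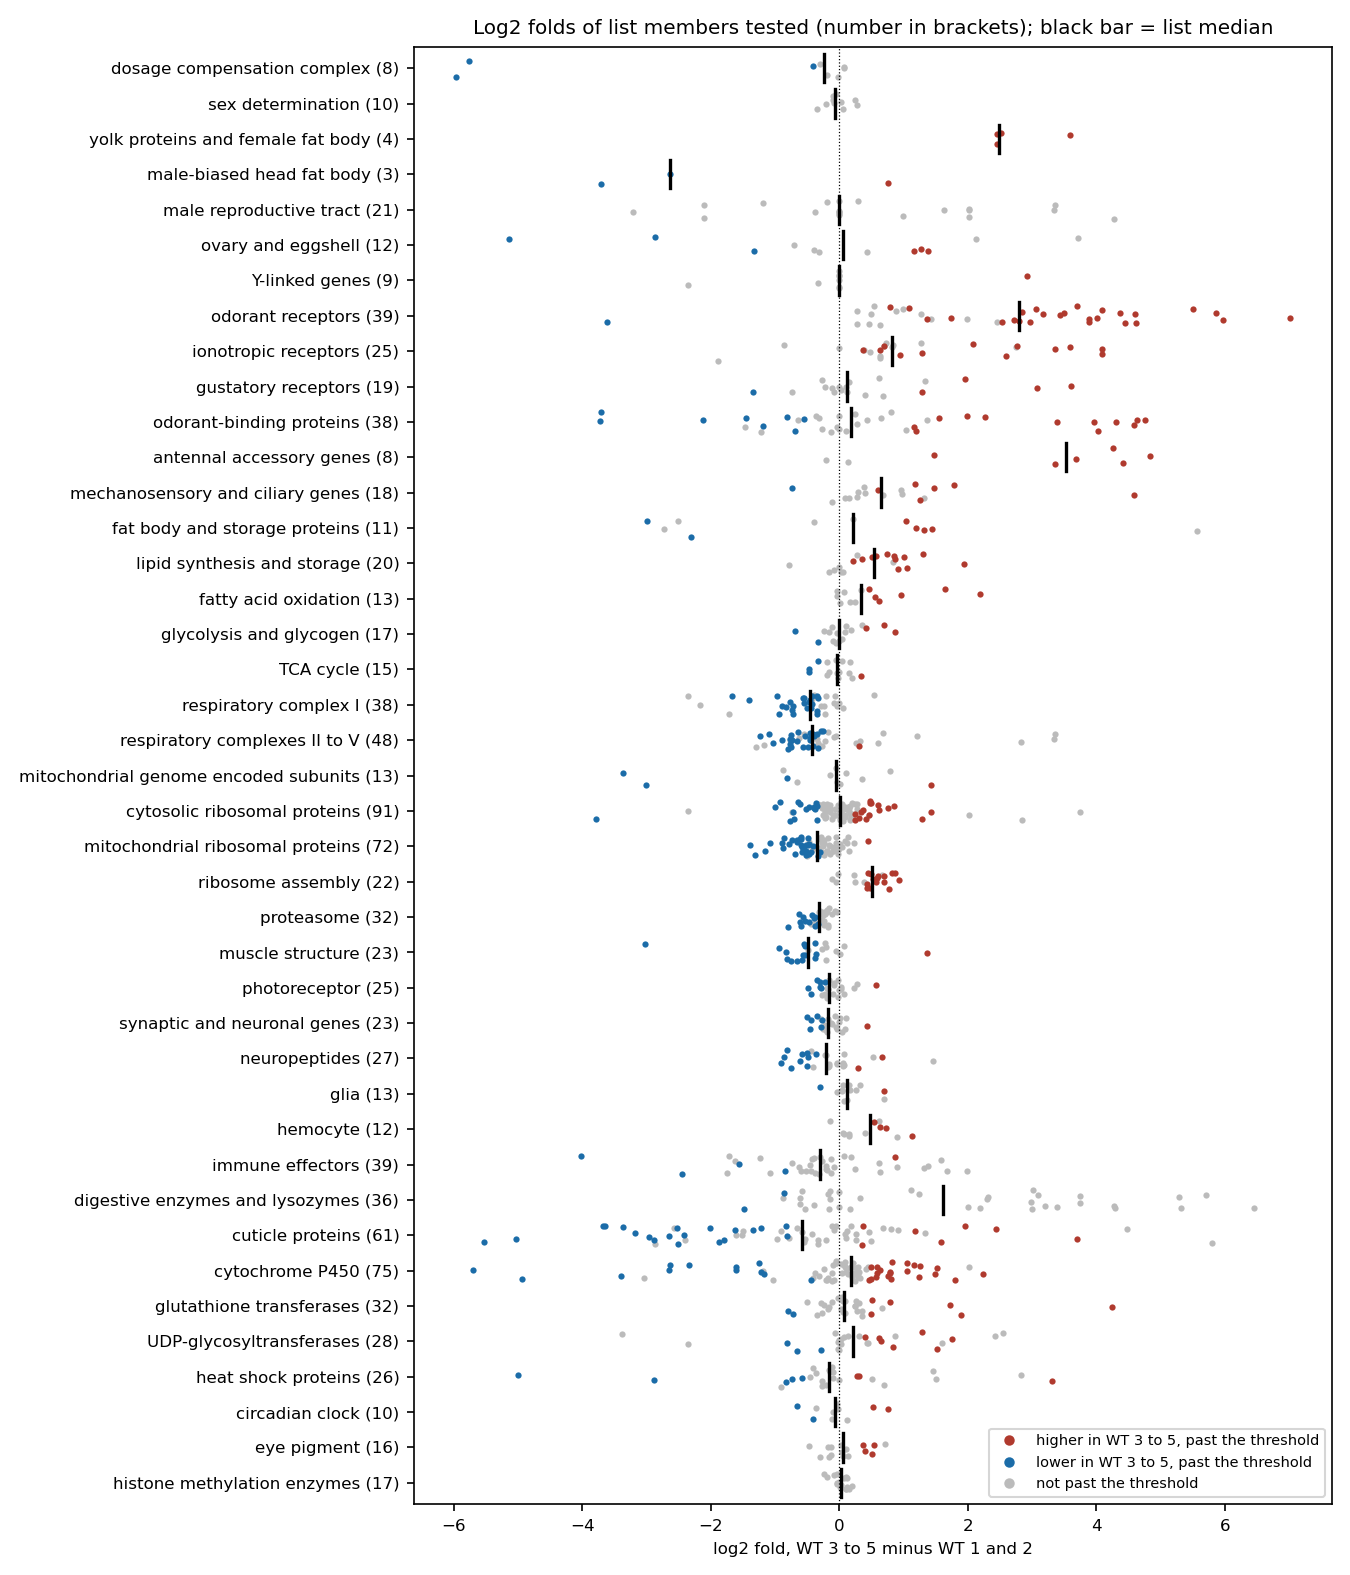
Each dot is 1 tested gene of 1 of 41 lists, placed by its log2 fold of WT 3 to WT 5 minus WT 1 and WT 2 (horizontal axis). Red and blue dots are higher and lower past the threshold, grey dots are not, and black bars are list medians, which run from -2.64 for the male-biased head fat body genes to 3.52 for the antennal accessory genes.

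Over all genes, the 12 with the highest log2 folds among those past the threshold that averaged at least 5 CPM and did not overlap included several antennal genes. Among them were a5, a10, Os-C, Obp19a, Obp59a and Obp69a, which like GstE4 are given above. CG8860 (chromosome 2R, 12179483 to 12179902) was at 0.209 and 0 against 11.6, 9.59 and 7.23 CPM (6.41 ± 0.53), or 5.45 without WT 2, which held no count. CG10357 was at 0.418 and 0.263 against 13.4, 16.3 and 14.1 CPM (5.39 ± 0.32). CG34148 was at 0.470 and 0.105 against 11.0, 13.3 and 10.9 CPM (5.32 ± 0.44), or 6.73 without WT 1 and 4.62 without WT 2. AOX4, an aldehyde oxidase, was at 0.157 and 0.684 against 11.5, 11.2 and 10.3 CPM (4.69 ± 0.61), or 4.00 without WT 1 and 6.07 without WT 2. The last, Acsx2, an acyl-CoA synthetase gene, was at 3.40 and 4.11 against 74.0, 63.2 and 88.3 CPM (4.32 ± 0.19).

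The 12 lowest held roX1, roX2 and Cyp6a17, described above, and genes with almost no counts in WT 3 to WT 5. lncRNA:CR44701 (chromosome 2L, 9887039 to 9887389) had 558 counts over WT 1 and WT 2 and 2 over the other three, a ratio of 376 with a 95% counting interval of 104 to 3111, which covers counting error only. CG4362 (chromosome 3R, 20306216 to 20307537) was at 49.5 and 43.4 against 0.180, 0.274 and 0.243 CPM (-7.60 ± 0.50), and lncRNA:CR44953 at 37.5 and 31.4 against 0.240, 0.438 and 0.182 CPM (-6.86 ± 0.75). frac, which encodes an extracellular matrix protein (chromosome 3L, 7562610 to 7569499), was at 67.5 and 82.4 against 1.62, 1.37 and 1.58 CPM (-5.62 ± 0.38), and Pxd, a peroxidase, at 17.2 and 10.3 against 0.1201, 0 and 0.122 CPM (-7.35 ± 0.86), or -6.76 without WT 4. CG8736 was at 173 and 155 against 1.92, 1.15 and 2.31 CPM (-6.52 ± 0.86). CG5172 was at 101 and 42.3 against 1.26, 1.26 and 1.03 CPM (-5.91 ± 0.60), or -5.14 without WT 1.

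The remaining members of the lowest 12, yl and FBgn0267727, were high in WT 2 alone among the WT libraries. In D234G yl reached 15.1 CPM and FBgn0267727 was at 12.6 to 179 CPM. In R873W FBgn0267727 reached 22.4 CPM. yl, the receptor by which oocytes take up yolk, was at 0.157 and 27.3 against 0, 0.0548 and 0.122 CPM, with 522 counts over WT 1 and WT 2 and 3 over the other three, a ratio of 234.4 with a 95% counting interval of 79.8 to 1140. Its log2 fold of -7.73 ± 1.77 was -1.34 and not past the threshold without WT 2, -8.71 without WT 1 and -8.62 without WT 5. FBgn0267727 was at 0.627 and 24.4 against 0.180, 0.274 and 0.182 CPM (-5.83 ± 1.42), or -1.53 and not past the threshold without WT 2 and -6.78 without WT 1. These folds therefore describe WT 2 and not the set.

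The share of genes higher or lower differed among the chromosomes. Of 107 genes tested on chromosome 4, 27.1% were higher and 1.87% lower, with a median log2 fold of 0.22. On the X, 9.75% of 2072 genes were higher and 17.6% lower, with a median of -0.08. The arms 2L, 2R, 3L and 3R had medians of -0.0018 to 0.014, with 11.8 to 15.1% higher and 11.1 to 12.2% lower. Of the 25 genes on the Y 5 were higher and 1 lower, with a median of 0. Of the 19 genes of the mitochondrial genome 5.26% were higher and 42.1% lower, with a median of -0.65. Of genes that averaged at least 5 CPM, 25 of 86 genes on chromosome 4 were higher and 1 lower. The single lower one was bt, which encodes the muscle protein projectin, at 947 and 836 against 615, 668 and 774 CPM (-0.38 ± 0.12), which lost the call without WT 1 (-0.28), WT 3 (-0.31) or WT 4 (-0.36). Higher ones included the kinase CaMKI, at 448 and 456 against 671, 667 and 664 CPM (0.56 ± 0.10), and the transcription factor Sox102F, at 86.2 and 86.8 against 149, 157 and 149 CPM (0.81 ± 0.12). The translation factor eIF4G1 was at 386 and 385 against 492, 542 and 531 CPM (0.44 ± 0.09). CaMKI, Sox102F, eIF4G1 and bt were picked after their values were seen. Genes of 1 arm are not independent replicates, and no test was made between arms.

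**Figure D3:**
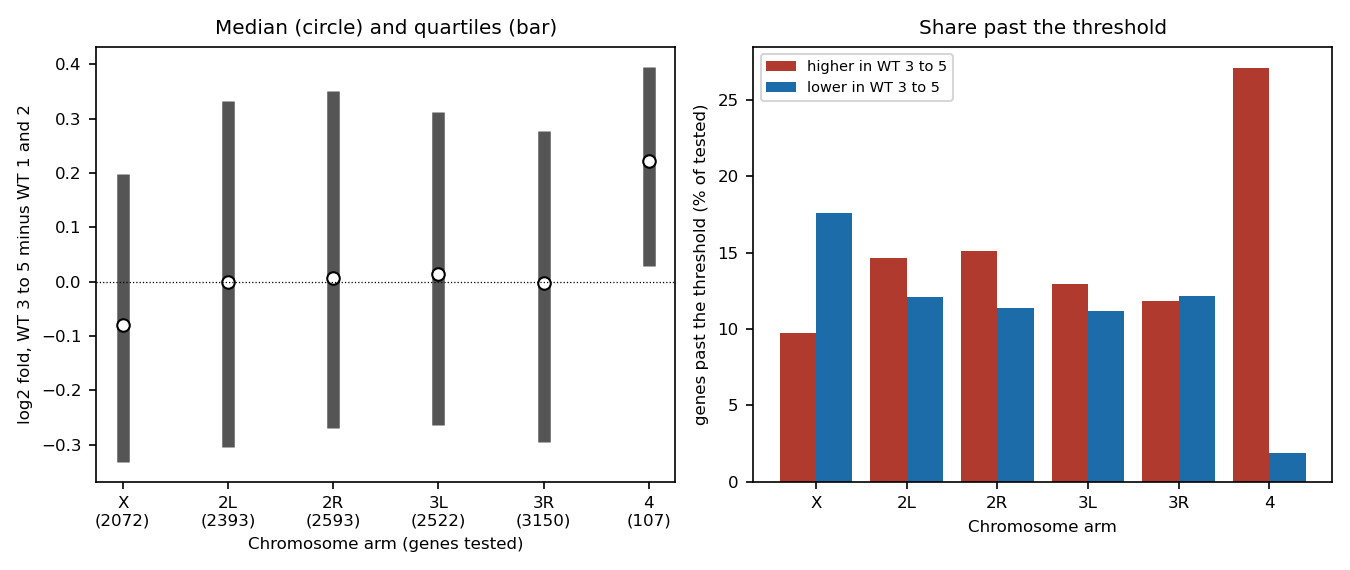
Left, the median (circle) and quartiles (bar) of the log2 fold of WT 3 to WT 5 minus WT 1 and WT 2 for genes tested on each chromosome arm, with their number in brackets. Right, the percentage of tested genes past the threshold that were higher (red) or lower (blue), where chromosome 4 reaches 27.1% higher and 1.87% lower and the X chromosome 9.75% and 17.6%.

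The sets were not uniform within. Among 8120 genes that averaged at least 5 CPM, WT 1 had no gene at least 4-fold above or below all other 4 libraries. WT 3 had 5 genes above, CG16826, CG33109 and CG45080 among them, and 1 below. WT 2 had 8 above, which were CycA, CycB, CycE, dhd, wisp, yl, Hsp27 and FBgn0267727. The mitotic cyclin gene CycB was at 1.46 and 63.2 against 0.540, 0.931 and 0.669 CPM, dhd, a germline thioredoxin, at 0.209 and 53.4 against 0.240, 0.110 and 0 CPM, and wisp, a poly(A) polymerase of the egg, at 0.261 and 24.8 against 1.08, 1.10 and 0.912 CPM. These genes, dhd and wisp known from the female germline, were high in WT 2 only, and without WT 2 none of CycA, CycB, CycE, dhd and wisp was past the threshold, with log2 folds of -0.02, -1.03, -0.49, -0.81 and 1.95. Hsp27, a small heat shock protein, was at 4.91 and 26.4 against 2.22, 2.03 and 2.13 CPM, and its log2 fold of -2.88 ± 0.53 was -1.21 and not past the threshold without WT 2 and -3.62 without WT 1.

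A second group of genes crossed the sets and was high in WT 2, WT 3 and WT 5 but near 0 in WT 1 and WT 4. These were the 5 genes averaging at least 20 CPM that differed most within a set. whe was at 0 and 169 against 561, 0.0548 and 57.1 CPM and lcs at 0.261 and 119 against 427, 0.164 and 57.6 CPM. CG16826 was at 2.20 and 378 against 1636, 0.931 and 252 CPM, CG45080 at 0 and 44.7 against 303, 0.0548 and 42.3 CPM and CG33109 at 0.105 and 16.0 against 84.5, 0.110 and 11.4 CPM. In all 5 genes WT 3 was the highest library, WT 2 the second and WT 5 the third. The lysozyme gene LysP, a gene of the digestive list picked after its values were seen, followed the same order at 0.105 and 13.6 against 19.6, 0.0548 and 3.53 CPM. None of these was past the threshold between the sets.

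Antimicrobial peptides set WT 4 and WT 5 apart within the second set. WT 4 held 4 genes at least 4-fold above all other libraries, AttC, Dro, Drs and SPH93, and WT 5 held 3 at least 4-fold below, DptB, Dro and Mtk. Attacin C, from AttC, was at 4.76 and 11.7 against 9.55, 85.9 and 1.40 CPM, drosocin, from Dro, at 7.005 and 14.6 against 11.6, 83.3 and 1.16 CPM, and drosomycin, from Drs, at 22.7 and 15.1 against 13.8, 119 and 7.48 CPM. Metchnikowin, from Mtk, was at 42.3 and 15.3 against 12.7, 64.4 and 1.82 CPM. The clock genes per, a repressor at 65.3 and 71.3 against 61.5, 72.3 and 24.9 CPM, and vri, a repressor of Clk at 113 and 118 against 126, 143 and 52.2 CPM, were lowest in WT 5 and overlapped between the sets. The 18 variant libraries were at 22.4 to 38.1 CPM for per and 37.8 to 85.2 CPM for vri. WT 5 thus lay within the range of the variant strains, and WT 1 to WT 4 lay above it. Cyp4e3 spanned 47.2 and 127 against 615, 225 and 68.2 CPM, and its log2 fold of 1.80 ± 0.62 was 2.68 without WT 2, 1.27 and not past the threshold without WT 1, and 0.75 and not past the threshold without WT 3. Each of 5579 genes averaging at least 20 CPM was counted once, for the library with its largest gap within a set. That gap was at least 2-fold between WT 1 and WT 2 in 9 genes. It parted WT 4 from its set in 16 genes, WT 5 in 13 and WT 3 in 1. A gene counted for WT 4, such as CG16826 or AttC, can also differ at least 2-fold between WT 1 and WT 2, so these are minimum counts.

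**Figure D4:**
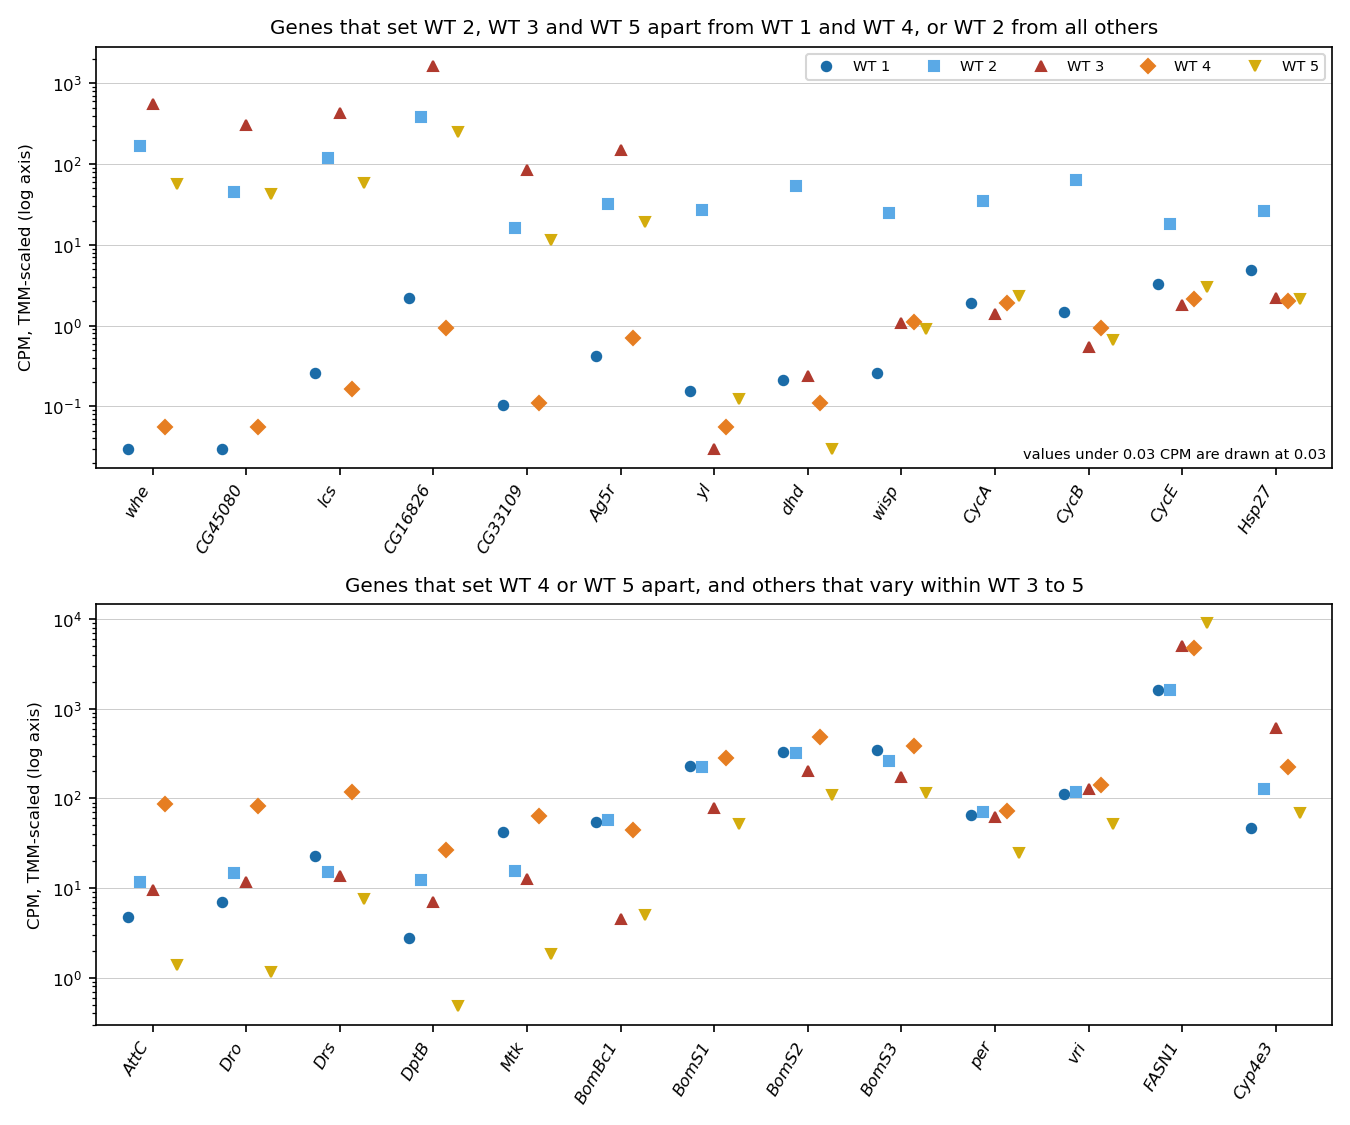
Each symbol is the level of 1 gene in 1 WT library, in TMM-scaled CPM on a log axis, with symbols and colours for WT 1 to WT 5 as in the key and values under 0.03 CPM drawn at 0.03. In the upper panel whe to Ag5r are high in WT 2, WT 3 and WT 5 and yl to Hsp27 in WT 2 alone, and in the lower panel AttC, Dro and Drs are highest in WT 4 and per and vri lowest in WT 5.

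The same genes were read in the 6 variant strains, whose labels were used as given. roX2 was at 0.141 to 0.439 CPM in A224T, 0.260 to 0.437 in L854F and 0.324 to 0.936 in JmjC. It was at 19.4 to 23.3 CPM in D234G, 29.7 to 32.2 in R873W and 26.8 to 40.5 in Y874C. The 3 libraries of each strain thus lay together, within or close to the range of 1 of the WT sets. Over the 945 genes past the threshold with at least a 2-fold difference, the strain's mean log2 level was nearer to that of WT 3 to WT 5 in 76.4% for A224T, 84.7% for L854F and 78.3% for JmjC. It was nearer in 23.3% for D234G, 34.0% for R873W and 32.1% for Y874C. In these variant strains strain and nearness to a set cannot be told apart, because all 3 libraries of a strain lay together for roX2.

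Levels of Orco and Yp1 ran opposite to those of roX2 across the strains. Orco was at 52.2 to 66.9 CPM in A224T, 61.0 to 75.04 in L854F and 41.2 to 47.1 in JmjC. It was at 4.69 to 6.47 CPM in D234G, 6.97 to 9.59 in R873W and 5.05 to 6.85 in Y874C. All 3 libraries of R873W thus lay above WT 1 and WT 2, and all 3 of JmjC lay below WT 3 to WT 5. Yp1 was at 8062 to 10936 CPM in A224T, 9432 to 13932 in L854F and 7473 to 8638 in JmjC. It was at 1736 to 2332 CPM in D234G, 3589 to 4184 in R873W and 3377 to 4449.9 in Y874C. JmjC, R873W and Y874C thus lay above WT 1 and WT 2 and below WT 3 to WT 5.

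Hsp70Ba and roX1 also took values between the sets. Hsp70Ba was at 216 to 226 CPM in D234G, 17.0 to 43.0 in R873W and 23.1 to 50.8 in Y874C, where the WT sets lay at 252 and 176 against 5.70, 7.83 and 6.38 CPM. roX1 was at 85.7 to 95.3 CPM in L854F, 180.3 to 218 in A224T and 276 to 335 in JmjC, although roX2 was under 1 CPM in these strains. It was at 613 to 716 CPM in D234G, 546 to 759 in R873W and 526.2 to 787 in Y874C. No variant library was as low for roX1 as WT 3 to WT 5.

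A few genes set WT libraries of 1 set apart from every other head library, by a rule chosen after the values were seen. Among 361 genes past the threshold with at least a 2-fold difference, no overlap and an average of at least 5 CPM, 202 were higher and 159 lower. WT 1 and WT 2 were at least 2-fold above all 21 other libraries in 8 genes, lncRNA:CR44701, CG4362, lncRNA:CR44953, Cyp6a17, frac, Drsl4, CG9377 and CG30054. CG4362 reached at most 0.422 CPM in the 18 libraries of the variant strains, Cyp6a17 1.83 CPM and frac 6.88 CPM. WT 1 and WT 2 were at least 2-fold below all others in no gene. WT 3 to WT 5 were at least 2-fold above all 20 other libraries in hoka alone, at 2.30 and 3.21 against 12.8, 11.7 and 11.7 CPM, a gene needed for gut cell junctions, and below them in Pxd, roX1 and Vajk2.

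**Figure D5:**
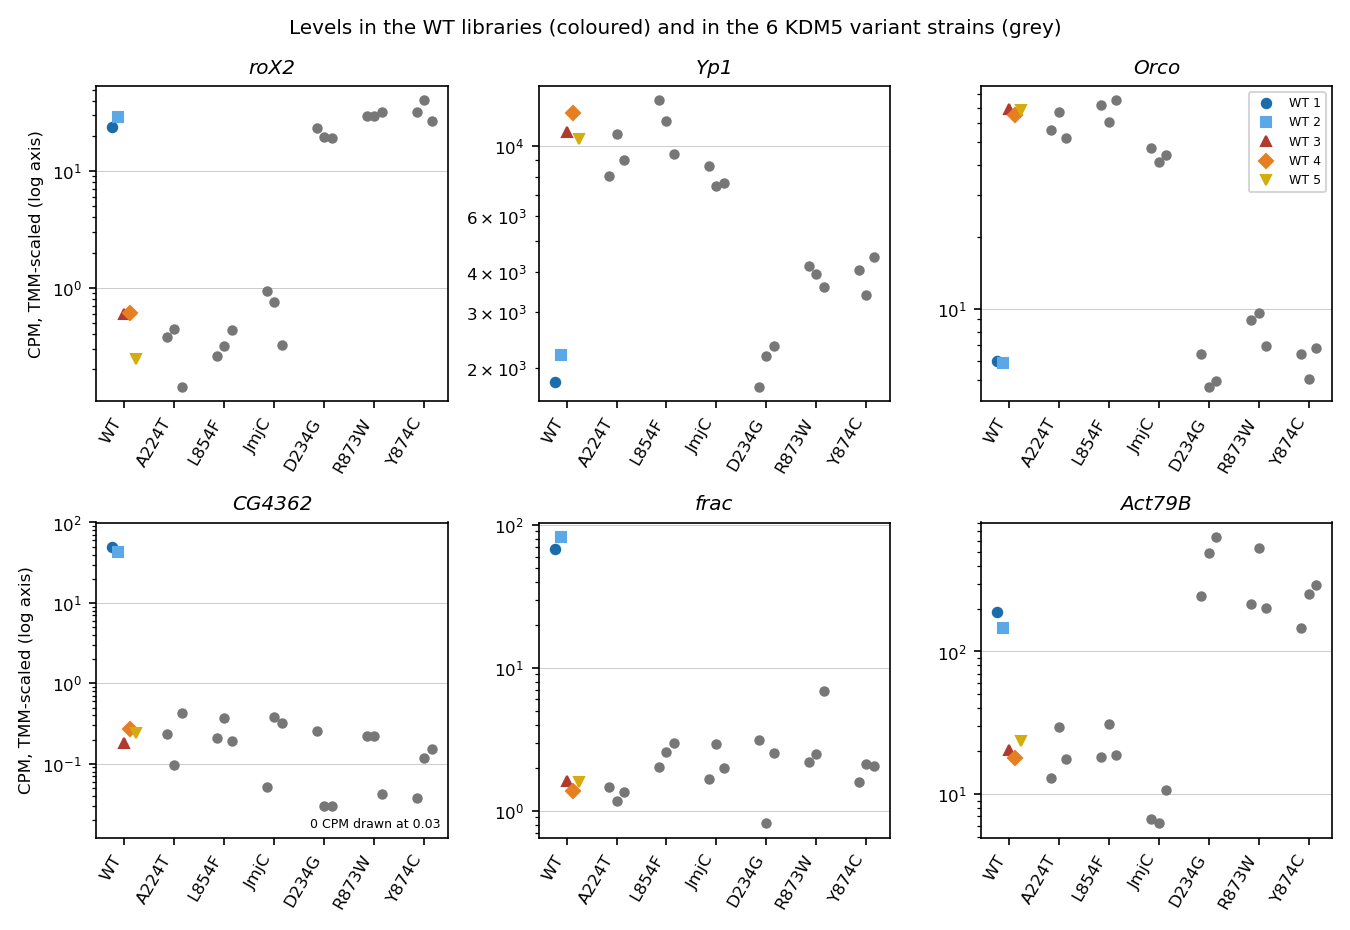
Each point is 1 library, placed by strain (horizontal axis) and by level in TMM-scaled CPM on a log axis (vertical axis), with the 5 WT libraries coloured as in the key and the variant strains grey. roX2 and Act79B are high in WT 1, WT 2, D234G, R873W and Y874C, Yp1 and Orco are high in the others, and CG4362 and frac are high in WT 1 and WT 2 only.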

How the data were processed

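RNA-seq of 23 fly head libraries was used, and 12 Ribo-Seq samples of the series were not analysed here. The authors' deposited table holds whole-number counts per gene, with 17830 genes in 23882 rows. The other 6052 rows are not genes and were left out of library sizes and tests. Per the submitters' processing notes, the tools were fastp, STAR, featureCounts and DESeq2, and the build was dm6. Their versions were not given in the sources used here. Neither are the annotation release, the strand option and the handling of shared reads, so overlapping, antisense and paralogous genes are uncertain.

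edgeR 4.0.16 (R 4.3.3, limma 3.58.1) fitted all 23 libraries in 8 groups, the 2 WT sets and the 6 variant strains, with TMM scaling, the filterByExpr filter (minimum count of 10, applied to these 8 groups so that genes with counts in WT 1 and WT 2 alone were kept) and the quasi-likelihood test. The fit was tested on simulated counts. Past the threshold means an adjusted p under 0.05 with Benjamini-Hochberg adjustment over 12925 genes, used to describe and not to test, since the sets were drawn from these values. Levels are counts scaled to library size with TMM factors (CPM).

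Symbols matched 17751 genes, and chromosomes and coordinates matched 12881 of the 12925 tested genes in a RefSeq table of the dm6 assembly. The members and the 41 gene lists were chosen with earlier results of these data known. Named by rule were the marker genes, the 12 highest and 12 lowest genes that averaged at least 5 CPM without overlap, up to 4 members of each list per direction (all members of lists of 5 or fewer), and 5 genes that varied most within a set. A further 76 genes were chosen after their values were seen: those given as not past the threshold, and vas, osk, Cp7Fa, Or92a, Or59b, Or42b, Or45a, Ir8a, Ir64a, Gr21a, Gr63a, Gr64f, Obp83a, lush, Amt, Snmp1, iav, mdy, whd, mt:srRNA, RpL5, Acp1, CR40801, hoka, the genes of the within-set and strain comparisons and those of chromosome 4. Alternatives were other size factors, library size alone, no filter, DESeq2 1.42.0, the 5 WT libraries alone, and leaving out each WT library in turn. Figures were drawn with matplotlib 3.10.9 in Python 3.11.15.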

Additional observations from a re-analysis of the deposited data

Results flagged for a closer look

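Among 183 named genes and 41 list totals, 10 had 1 WT library far from the other 4 by Dixon's criterion. Chance meets this criterion in about 1 in 20 groups drawn from 1 population. Most of the genes were named for a gap between the sets, and some for their spread within a set. That rate therefore does not apply to them, and the part of chance in this number was not tested. WT 2 stood above the others for yl (27.3 CPM, the next library being at 0.157), FBgn0267727 (24.4 CPM, next 0.627) and Hsp27 (26.4 CPM, next 4.91). WT 3 stood above the others for CG45080 (303 CPM, next 44.7), lcs (427 CPM, next 119), CG16826 (1636 CPM, next 378) and CG33109 (84.5 CPM, next 16.0). WT 3 also held the highest summed level of the glycolysis and glycogen genes (9885 CPM, next 9110.0), the neuropeptide genes (5479 CPM, next 4437) and the glutathione transferases (1488 CPM, next 1241). The part of library composition in these values was not tested.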

How the results depend on the processing

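The counts of 1686 higher and 1632 lower genes ranged from 1017 to 1538 and from 927 to 1473 when 1 WT library was left out, lowest without WT 1 (1017 and 955) or WT 2 (1031 and 927), where that set holds 1 library whose spread is assumed to be like that of the others. They were 1714 and 1601 with DESeq2's size factors, 1351 and 1982 with library size alone, 1601 and 1466 with no filter, 1806 and 1662 with DESeq2, and 1542 and 1416 with the WT libraries alone. Library size alone moved the median of all genes to -0.05 and the share of higher calls from 50.8 to 40.5%. Of 178 genes named by rule and past the threshold, 124 kept the call in every fit without 1 library and 54 lost it in at least 1 such fit, and none changed direction. Among the genes chosen after their values were seen, osk (3.33) and wisp (1.95) changed sign without WT 2, where neither was past the threshold, and were lowest without WT 1 (-6.13 and -4.57). The medians of the lists and of chromosomes X and 4 gave 424 values under the alternatives. Of these, 35 moved by more than the spread between libraries, and 4 of size 0.1 or more changed sign or reached 0. The cause was not tested. No paired analysis was possible because the libraries compared share no replicate numbers. Genes under about 1 CPM rest on a few counts in each library.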
